A study of Mus musculus with 15 samples.

Results

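Mouse embryonic fibroblasts (MEFs) that expressed Neurog3 for 1 day were compared with MEFs that expressed its relative Neurog1 for 1 day. The 2 groups, labelled Ngn3 and Ngn1, were chosen by their labels alone and hold 3 libraries each, 6 of the 15 in the series. Per the labels, the cells of both groups were grown in serum medium and infected with lentiviruses that carry one factor or the other, and doxycycline switched the factor on at day 0. Day 1 lies before the change to a neuronal medium at day 2, so both groups were still in fibroblast medium. The remaining libraries are 3 with Neurog3 at day 13, 3 with Neurog1 at day 13 and 3 controls, which are labelled only as control. No strain, genotype, age, virus titre or promoter is given in the sources used here, and whether a group's libraries are separate cultures is not stated. The p-values therefore measure the spread between these libraries. Where the letter of the label (a, b or c) is a block, they measure the spread of the differences within letters. Either spread may be in part technical.

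Neurogenins are basic helix-loop-helix (bHLH) transcription factors that pair with E proteins and bind E-boxes in DNA. In the embryo Neurog1 acts in cranial and spinal sensory neurogenesis, whereas Neurog3 is the factor that commits progenitors to the endocrine lineage of the pancreas and gut. Both act early and transiently: they switch on Notch ligands such as Dll1 and further bHLH factors of the Neurod family, which carry the differentiation programme on.

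The 6 libraries held 16179235, 17361026 and 16415055 counts with Neurog3 (letters a, b and c of the labels) and 16864822, 17645853 and 16736544 counts with Neurog1. The letters marked a structure of their own. Across the genes tested, the correlation of log2 levels was 0.982 to 0.987 between libraries of the same letter and different factor, and 0.967 to 0.982 between libraries of different letter and the same factor. Ddx3y, a gene on the Y chromosome, followed the letter as well, with 42.5, 71.6 and 93.2 normalised counts (CPM, counts scaled to a common library size) in letters a, b and c with Neurog3 and 42.1, 67.9 and 99.6 CPM with Neurog1. So did the share of mitochondrial counts, at 2.58%, 2.86% and 4.10% with Neurog3 and 2.48%, 2.79% and 4.21% with Neurog1. The comparison was therefore run without and with the letter as a block.

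The delivered factors matched the labels. Neurog3 (ENSMUSG00000044312, chromosome 10, 62133090 to 62134763, plus strand, mm10) had 20393, 52069 and 20429 counts in the Neurog3 libraries, or 1416, 3020 and 1293 CPM, against 0, 0 and 13 counts in the Neurog1 libraries. Neurog1 (ENSMUSG00000048904, chromosome 13, 56250478 to 56252163, minus strand) had 1, 0 and 2 counts in the Neurog3 libraries, against 31250, 65277 and 16252 counts in the Neurog1 libraries, or 2055, 3842 and 1083 CPM. The fitted log2 fold change of Neurog3 rests on those 13 counts of letter c in the Neurog1 libraries: it was 12.71 with all libraries and 17.99 without the Neurog1 library of letter c. Letter b held the most of the delivered factor in both groups. With 3 counts of Neurog1 in the Neurog3 libraries, its ratio is known only within wide limits: the Neurog1 libraries held 37787 times as much, with a 95% counting interval of 12930 to 183235 that covers counting error only. Neurog2, the third family member, had 0, 3 and 0 counts with Neurog3 and 0 in each library with Neurog1. Reads of the viral and the endogenous transcript of a factor cannot be told apart in these counts.

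Few genes other than the factors themselves passed a test between the 2 groups at day 1. In the fit across all 15 libraries without a block, 1 gene was higher with Neurog3 (Neurog3 itself, log2 fold change 12.71 ± 0.98, SE) and 1 was lower (Neurog1, -15.01 ± 1.09), 0.00593% each, with adjusted p-values of 1.42e-05 and 1.97e-05 (edgeR quasi-likelihood test, Benjamini-Hochberg over 16872 genes). Both together are 0.0119% of the genes tested. At an unadjusted p under 0.05 there were 286 of the 16872 genes. That is below a share of 0.05, which such a cut gives where no gene differs. The fit with the letter as a block within each day gave 592 of 16872, also below that share. The paired fit described next gave 1033 of 14534, which is above it. With the letter as a block within each day, 2 further genes were lower with Neurog3, which makes 1 higher (0.00593%) and 3 lower (0.0178%), or 0.0237% in all. They were the peptide hormone gene Sct and the spindle adaptor gene Insc. Of the genes called in the paired fit described next, these alone passed a 15-library fit beside the factors; every other one had an adjusted p of 1 without the block and of at least 0.0631 with it. All log2 fold changes here are Neurog3 over Neurog1, so a positive value means higher with Neurog3.

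When the 6 day-1 libraries were fitted alone with the letter as a block (below, the paired fit), 25 genes were higher (0.172%) and 50 lower (0.344%) with Neurog3, 75 of 14534 or 0.516%. Without the block the same 6 libraries gave 1 higher (0.00688%) and 2 lower (0.0138%), or 0.0206%. The count rests on which letters are in the fit: it was 332 without the pair of letter a, 70 without letter b and 18 without letter c, and 73, 47 and 14 of the 75 were among those. Beside the factors, 10 genes were called in each of the paired fits that leave out 1 letter: Insc, Sct, Hapln1, Ephx2, Ch25h, Lyz2, Ace, Fhod3, Ttyh1 and C1ql2. These fits hold fewer libraries and reuse those that picked the genes, so staying called in them is weak support. The other genes named below as called lose the call without at least 1 letter. Leaving out the factors, 73 genes remained, 24 higher and 49 lower. The differences were of moderate size: 10 of the 24 were at least 2-fold higher and 20 of the 49 at least 2-fold lower, and the least change called was 0.57 on the log2 scale. In 40 of the 73, 12 higher and 28 lower, the 3 Neurog3 libraries did not overlap the 3 Neurog1 libraries, as did 404 genes above (2.39%) and 444 below (2.63%) of all genes tested. All 73 had the same direction in each letter pair, as did 2013 genes higher (11.9%) and 2307 lower (13.7%) of all genes tested.

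**Figure D1:**
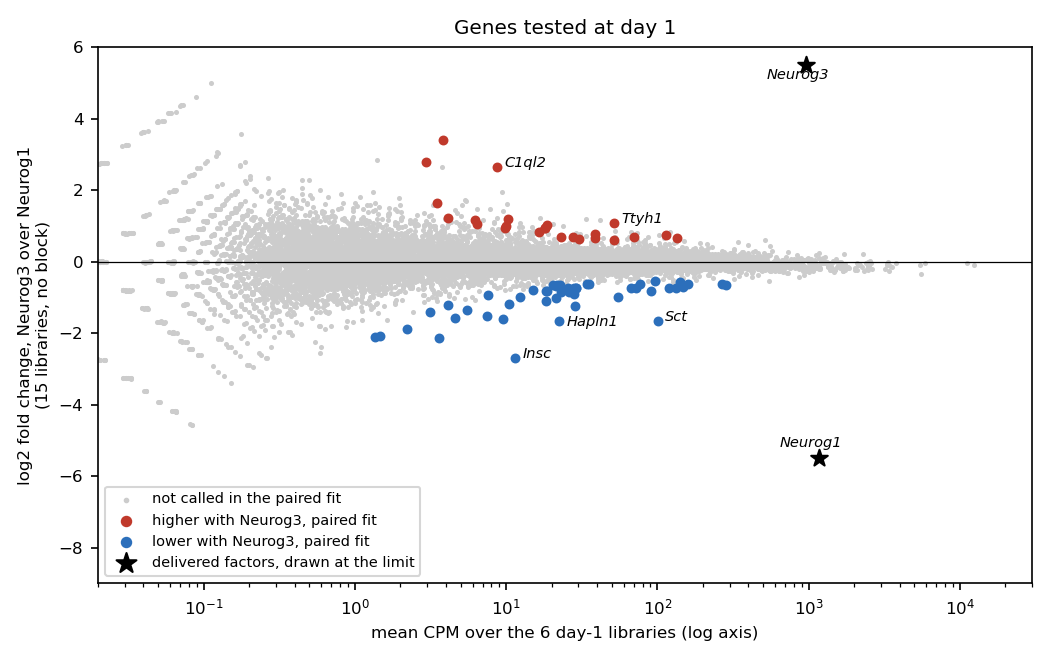
Mean level over the 6 day-1 libraries (CPM, log axis) against the log2 fold change of Neurog3 over Neurog1 from the 15-library fit without a block, 1 point per gene tested. Red and blue points are the 24 genes higher and 49 lower with Neurog3 in the paired fit, and stars are the delivered factors, drawn at the limit since they lie at 12.71 and -15.01; Insc, Sct and Hapln1 lie below the cloud and C1ql2 above it.

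Insc and Sct, lower with Neurog3, and Ttyh1 and C1ql2, higher with Neurog3, are among the genes called whichever letter was left out. Their promoters are shown for that reason, and because E-boxes are the sites that bHLH factors read. The stretches run from 250 bases before to 50 after the RefSeq transcript start (GRCm38.p6), 5′ to 3′ on the strand of the gene. Capitals mark each match to the E-box CANNTG, a pattern that reads the same on both strands, and overlapping matches run together.
Insc (plus strand, chr7:114745516-114745815): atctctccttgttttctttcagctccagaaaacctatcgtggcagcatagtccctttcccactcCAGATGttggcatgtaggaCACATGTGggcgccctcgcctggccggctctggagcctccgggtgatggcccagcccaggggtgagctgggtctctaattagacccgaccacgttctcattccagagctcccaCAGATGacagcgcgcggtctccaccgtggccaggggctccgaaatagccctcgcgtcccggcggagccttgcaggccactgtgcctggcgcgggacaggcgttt
Sct (minus strand, chr7:141279084-141279383): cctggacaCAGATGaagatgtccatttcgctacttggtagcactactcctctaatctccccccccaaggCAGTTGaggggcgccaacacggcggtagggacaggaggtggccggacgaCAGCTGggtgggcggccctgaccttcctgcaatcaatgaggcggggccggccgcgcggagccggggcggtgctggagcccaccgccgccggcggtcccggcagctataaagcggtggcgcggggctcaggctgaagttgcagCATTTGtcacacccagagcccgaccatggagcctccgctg
Ttyh1 (plus strand, chr7:4119280-4119579): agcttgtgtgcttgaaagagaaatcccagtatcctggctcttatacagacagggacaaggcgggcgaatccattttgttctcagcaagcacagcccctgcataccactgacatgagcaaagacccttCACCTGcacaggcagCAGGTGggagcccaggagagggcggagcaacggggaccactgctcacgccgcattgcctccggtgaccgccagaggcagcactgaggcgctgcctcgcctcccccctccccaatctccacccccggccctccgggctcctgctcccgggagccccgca
C1ql2 (plus strand, chr1:120340332-120340631): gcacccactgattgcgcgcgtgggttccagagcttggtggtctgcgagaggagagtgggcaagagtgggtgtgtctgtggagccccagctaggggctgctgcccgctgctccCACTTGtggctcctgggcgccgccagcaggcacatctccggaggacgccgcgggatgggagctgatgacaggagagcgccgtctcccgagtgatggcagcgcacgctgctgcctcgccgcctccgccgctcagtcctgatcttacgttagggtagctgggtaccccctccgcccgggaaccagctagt

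The pattern CANNTG was found 4 times in the Insc stretch, 4 times in Sct, 2 times in Ttyh1 and 1 time in C1ql2. It is common, since 72.3% of the 32851 RefSeq promoters of this length hold at least 1. The form CAGATG or CATCTG, which proneural factors of the Neurog and Neurod families are known to favour, was present 2 times in Insc and 1 time in Sct, and not in the Ttyh1 and C1ql2 stretches. It stood in 17.2% of all promoters. Of the genes called in the paired fit that have a RefSeq promoter, 1 of 18 higher with Neurog3 and 9 of 36 lower with Neurog3 held it. The form CAGCTG was present 1 time in Sct and not in the other stretches, against 16.3% of all promoters, 4 of the 18 higher genes and 8 of the 36 lower genes. The form CAGGTG or CACCTG was present 2 times in Ttyh1 and not in the others, against 20.2% of all promoters, 4 of the 18 and 9 of the 36. These matches describe letters in a short window and say nothing of binding.

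Insc (ENSMUSG00000048782, chromosome 7, 114743694 to 114850383, plus strand) encodes Inscuteable, an adaptor that orients the spindle in asymmetrically dividing cells. It stood at 3.89, 1.97 and 3.35 CPM with Neurog3, against 20.1, 22.0 and 17.9 CPM with Neurog1. Every Neurog3 library was far below every Neurog1 library, and the controls had 0.53, 1.79 and 1.09 CPM. The log2 fold change was -2.73 ± 0.34 with the block within day (adjusted p = 0.0125) and -2.70 ± 0.47 without it (adjusted p = 0.185, edgeR). In the paired fit it was 6.62-fold lower with Neurog3. Against the shared controls, the log2 fold change was 1.42 with Neurog3 (adjusted p = 0.076, edgeR) and 4.12 with Neurog1 (adjusted p = 6.8e-05), so that only the rise with Neurog1 passed the test.

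Sct (ENSMUSG00000038580, chromosome 7, 141278330 to 141279133, minus strand) encodes secretin, a hormone of endocrine cells of the gut. Sct had 69.3, 55.6 and 20.6 CPM with Neurog3, against 213, 154 and 89.9 CPM with Neurog1. The groups did not overlap, and within each group letter c was lowest. The log2 fold change was -1.73 ± 0.20 with the block within day (adjusted p = 0.00779) and -1.65 ± 0.50 without it (adjusted p = 1, edgeR). The controls held 0, 0.13 and 0 CPM, so Sct was above control with both factors, with log2 fold changes of 9.93 for Neurog3 and 11.58 for Neurog1 (adjusted p = 7.2e-06 and 2.1e-06, edgeR). In bulk RNA, fewer cells expressing a gene and less RNA per cell cannot be told apart.

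Ttyh1 (ENSMUSG00000030428, chromosome 7, 4119408 to 4136708, plus strand) encodes a membrane protein of the tweety family that is abundant in neural tissue. Ttyh1 had 63.0, 87.7 and 59.0 CPM with Neurog3, against 25.3, 39.3 and 34.2 CPM with Neurog1. All Neurog3 libraries lay above all Neurog1 libraries. The log2 fold change was 1.08 ± 0.13 in the paired fit (adjusted p = 0.0011) and 1.08 ± 0.37 without a block (adjusted p = 1, edgeR), and 0.0631 was the adjusted p with the block within day. The controls had 0.33, 0.83 and 0.36 CPM. Ttyh1 overlaps 2 annotated genes on the opposite strand, and no strand setting of the counting is given.

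C1ql2 (ENSMUSG00000036907, chromosome 1, 120340582 to 120343174, plus strand) encodes a secreted C1q-like protein that organises synapses. It had 6.53, 29.8 and 8.92 CPM with Neurog3, against 2.04, 4.41 and 0.80 CPM with Neurog1, and 0 counts in each control. Letter b, where the delivered factor was most abundant, gave the highest level in both groups. The log2 fold change was 2.59 ± 0.27 in the paired fit (adjusted p = 0.000144) and 2.63 ± 0.88 without a block (adjusted p = 1, edgeR), and the adjusted p with the block within day was 0.187. Without a block, the size depended on single libraries of letter b. The log2 fold change was then 1.68 without the Neurog3 library of letter b and 3.38 without the Neurog1 library of letter b. The paired fit without the pair of letter b gave 2.46, close to the 2.59 with all letters.

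**Figure D2:**
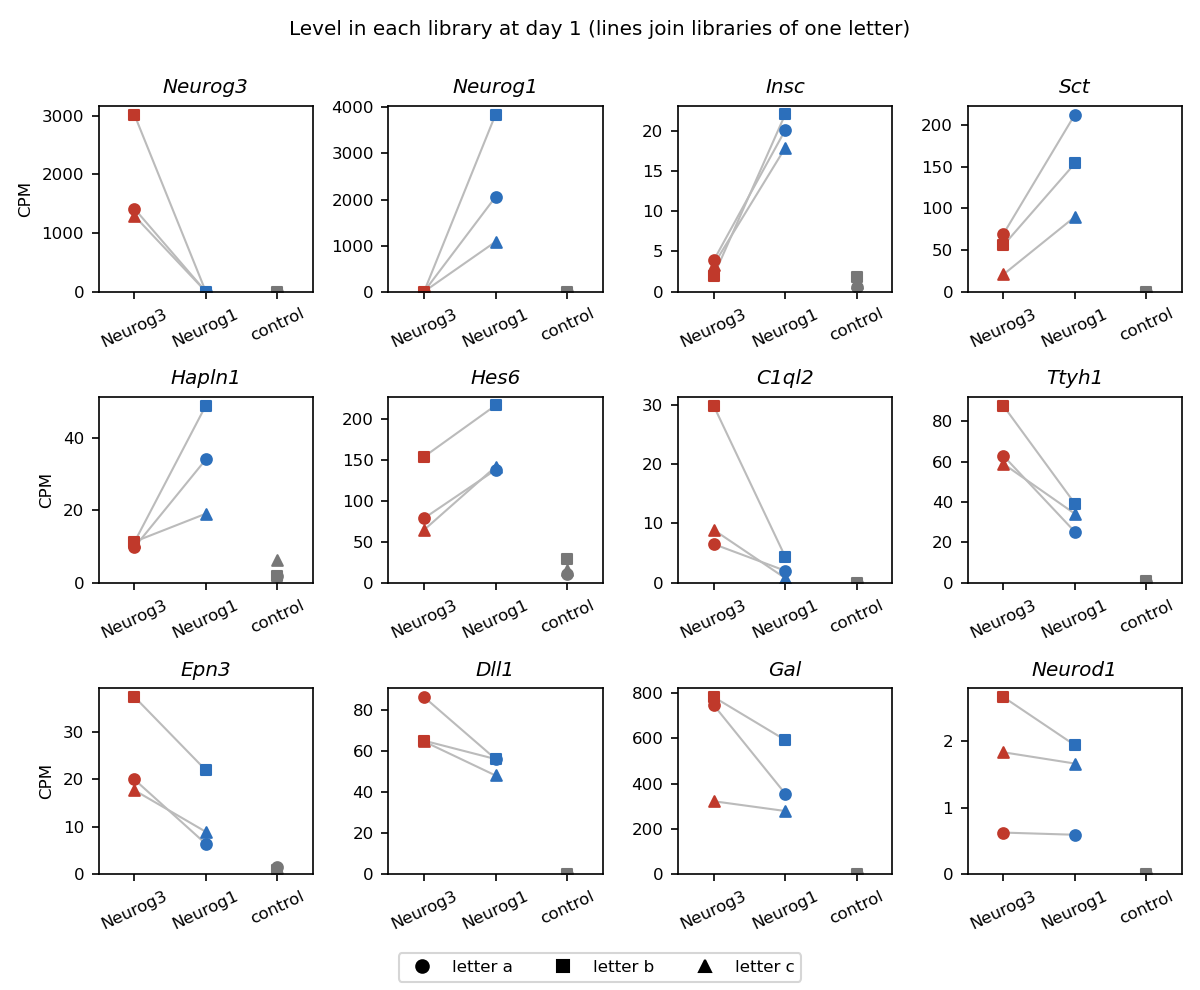
CPM of 12 genes in each library, with Neurog3 at day 1 on the left, Neurog1 at day 1 in the middle and control on the right, and grey lines joining the Neurog3 and Neurog1 libraries of the same letter. The lines for Insc, Sct, Hapln1 and Hes6 go up to the Neurog1 libraries in all 3 letters, those for C1ql2, Ttyh1, Epn3 and Dll1 go down, and Neurod1 stays under 3 CPM in both groups.

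The genes named in this and the next 2 paragraphs were chosen after their values were seen, unless they belong to a gene list, and are grouped by role for reading only. Their log2 fold changes are those of the paired fit. Higher with Neurog3 were Sv2b, a synaptic vesicle glycoprotein (8.33, 22.4 and 12.3 CPM with Neurog3, 5.79, 7.65 and 5.46 CPM with Neurog1, log2 fold change 1.10), and Artn, the ligand of the GDNF family receptor Gfra3 (1.25). Lower with Neurog3 were Sh3gl3, an endophilin of vesicle endocytosis (9.93, 12.8 and 12.3 CPM with Neurog3, 19.2, 28.7 and 27.0 CPM with Neurog1, log2 fold change -1.09), Cpne6, a brain copine (-1.24), and Bhlhe22, a neuronal bHLH repressor (-0.75). The Sv2b and Sh3gl3 libraries did not overlap between the groups. Crhbp, which binds corticotropin-releasing hormone, had 95.9, 51.6 and 49.2 CPM with Neurog3 and 154, 90.3 and 103 CPM with Neurog1 (log2 fold change -0.85 ± 0.12, adjusted p = 0.00486, paired edgeR fit). Its groups overlapped, although each letter pair was lower with Neurog3.

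Called genes of the matrix and of signalling were found in both directions. Hapln1, the link protein that joins hyaluronan to proteoglycans, had 9.79, 11.2 and 11.3 CPM with Neurog3, against 34.0, 48.9 and 19.1 CPM with Neurog1 (log2 fold change -1.57 ± 0.21, adjusted p = 0.00165, paired edgeR fit). The Neurog3 libraries lay close together and below all Neurog1 libraries, which varied more. Also lower with Neurog3 than with Neurog1 were Col14a1, a fibril-associated collagen (log2 fold change -1.26), and Eln, which encodes elastin (-0.74). So were the growth factor gene Bmp4 (-0.76), the Wnt receptor gene Fzd1 (-0.68) and the angiotensin receptor gene Agtr2 (-0.90). Higher with Neurog3 were Itih5, whose product binds hyaluronan (0.88), and Igsf10, a secreted immunoglobulin-domain protein (0.64). Ace, which encodes the enzyme that makes angiotensin II, had 18.0, 67.0 and 25.7 CPM with Neurog3, against 54.8, 125 and 40.2 CPM with Neurog1 (log2 fold change -1.04). Dusp2, a phosphatase of MAP kinases (-1.11), and the kinase gene Plk3 (-0.74) were lower with Neurog3 than with Neurog1, and both were above control with each factor. Rspo4, a secreted enhancer of Wnt signalling, was higher with Neurog3 (19.0, 11.4 and 9.81 CPM, against 8.22, 6.95 and 4.86 CPM with Neurog1, log2 fold change 0.97).

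Among metabolic and membrane genes, Ephx2, the soluble epoxide hydrolase, had 4.03, 7.36 and 2.91 CPM with Neurog3, against 9.27, 24.8 and 9.19 CPM with Neurog1 (log2 fold change -1.55 ± 0.19, adjusted p = 0.00127, paired edgeR fit). Ch25h, cholesterol 25-hydroxylase (log2 fold change -1.52), and the phospholipase gene Plb1 (-2.34) were also lower with Neurog3. Plb1 was sparse, at 0.38 to 2.78 CPM with Neurog3 and 4.66 to 8.12 CPM with Neurog1. Pfkfb3, which makes the activator of glycolytic phosphofructokinase, was higher with Neurog3, with 78.0, 101 and 81.8 CPM against 47.0, 72.8 and 40.8 CPM with Neurog1 (log2 fold change 0.73). Egln3, a prolyl hydroxylase of the hypoxia response, was lower (-0.63), so the 2 called members of the glycolysis and hypoxia list moved in opposite directions. Pygb, the brain form of glycogen phosphorylase, was higher (211, 152 and 129 CPM with Neurog3, 126, 110 and 78.3 CPM with Neurog1, log2 fold change 0.64). Epn3, an endocytic adaptor of the epsin family, was higher by 1.11, and Prom1, a membrane glycoprotein of progenitor cells, by 0.68.

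Among the genes of the neurogenic cascade that were set as anchors, Hes6 passed the paired fit, whereas Dll1, Neurod1, Neurod4 and Insm1 passed no fit in which they were tested. Dll1, the Notch ligand that neurogenins switch on, had 86.4, 65.1 and 64.7 CPM with Neurog3, against 56.2, 56.1 and 48.1 CPM with Neurog1. All Neurog3 libraries were higher, but the log2 fold change of 0.43 had a 95% interval of -0.10 to 0.96 without a block (adjusted p = 1) and 0.15 to 0.68 in the paired fit (adjusted p = 0.253, edgeR). The controls averaged 0.13 CPM. Hes6, a bHLH factor that counters the Notch effector Hes1, had 79.0, 154 and 64.7 CPM with Neurog3, against 138, 217 and 142 CPM with Neurog1. It was lower with Neurog3 in each letter, by 0.81 ± 0.13 on the log2 scale in the paired fit (adjusted p = 0.0115), and by 0.74 ± 0.38 without a block (adjusted p = 1, edgeR).

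The Neurod genes, which act downstream of neurogenins, were barely expressed at day 1. Neurod1 had 0.62, 2.67 and 1.84 CPM with Neurog3 and 0.59, 1.94 and 1.67 CPM with Neurog1, and 0 in the controls. Its log2 fold change of 0.30 had an interval of -0.90 to 1.5, so a level more than 2-fold higher with Neurog3 was within the error. Neurod2 had 1.39, 4.12 and 1.90 CPM with Neurog3, against 0.46, 1.29 and 0.87 CPM with Neurog1. Its groups did not overlap, and its log2 fold change of 1.49 (interval 0.29 to 2.69) did not pass the test over all genes without a block (adjusted p = 1, edgeR). In the paired fit its interval was 0.67 to 2.26, and it did not pass either (adjusted p = 0.126, edgeR). Neurod4 had at most 0.29 CPM in any of the 6 libraries. Insm1, a zinc-finger factor of endocrine and neuronal differentiation, stood at 1.46, 1.33 and 1.77 CPM with Neurog3 and 1.05, 1.47 and 1.13 CPM with Neurog1, with an interval of -0.40 to 1.03.

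Ebf3 and Atoh8, further factors of neurogenic programmes, had 100.2, 93.9 and 97.3 CPM and 141, 122 and 121 CPM with Neurog3, against 78.6, 76.8 and 58.6 CPM and 104, 97.8 and 86.3 CPM with Neurog1. Both were higher in every Neurog3 library, with log2 intervals of 0.05 to 0.84 and -0.13 to 0.97 without a block (adjusted p = 1, edgeR). In the paired fit the intervals were 0.18 to 0.73 and 0.17 to 0.67, and neither gene passed (adjusted p = 0.194 and 0.205, edgeR). Nhlh2 ran the other way, with 2.15, 4.52 and 1.77 CPM with Neurog3 and 5.52, 5.89 and 5.33 CPM with Neurog1. Its log2 interval was -1.84 to -0.11 without a block (adjusted p = 1) and -1.65 to -0.47 in the paired fit (adjusted p = 0.137, edgeR). In the list of proneural and neuronal transcription factors, 1 of the 21 genes tested in the paired fit was called, Hes6, and none of the 29 tested in the 15-library fit without a block. Of those 29, 16 had a positive and 12 a negative log2 fold change, with a median of 0.03 beside 0.00 over all genes tested. In the Notch list none of the 24 members tested without a block and none of the 19 tested in the paired fit was called, and the median was 0.12. Heyl, a Notch target, and the receptor Notch2 had log2 intervals of -0.69 to 0.97 and -0.58 to 0.82.

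Id proteins lack a DNA-binding domain and take E proteins away from factors such as the neurogenins. Id1, Id2 and Id3 had lower values with Neurog3 in every letter pair, and Id3 passed the paired fit. Id3 had 294, 149 and 189 CPM with Neurog3, against 355, 288 and 324 CPM with Neurog1 (log2 fold change -0.67 ± 0.14, adjusted p = 0.0446, edgeR). Id2 had 570, 293 and 483 CPM with Neurog3 and 642, 562 and 746 CPM with Neurog1, with a log2 fold change of -0.58 that did not pass (adjusted p = 0.11, paired fit). Id1 had 460, 351 and 322 CPM with Neurog3 and 473, 403 and 455 CPM with Neurog1, and did not pass either (adjusted p = 0.767). In the same list Tcf12, an E protein that dimerises with neurogenins, had a log2 fold change of 0.07 with an interval of -0.25 to 0.40. Of the 7 tested members, 6 had a negative log2 fold change, with a median of -0.23.

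**Figure D3:**
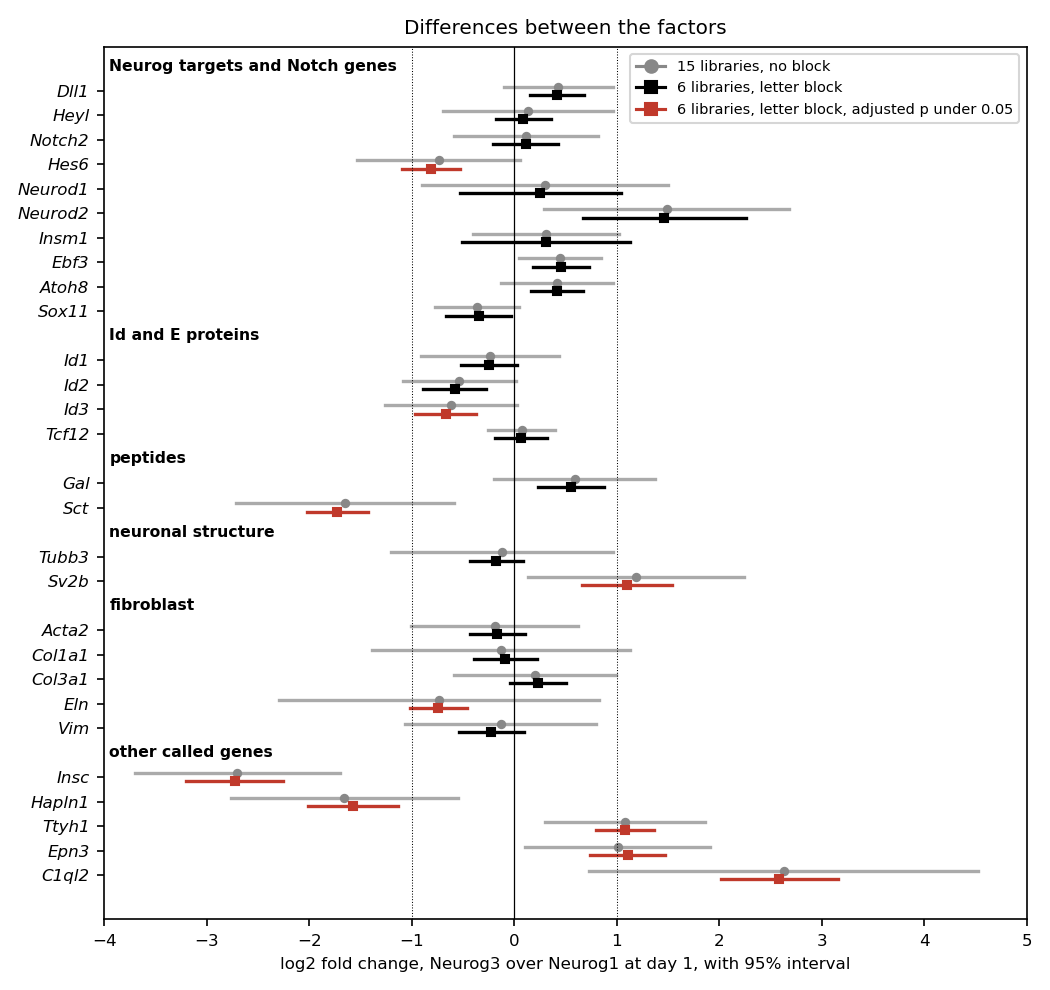
Log2 fold change of Neurog3 over Neurog1 at day 1 with its 95% interval, for 28 genes in 6 groups. Grey circles are the 15-library fit without a block, squares are the paired fit on 6 libraries, red where the adjusted p was under 0.05; dotted lines mark a 2-fold difference. Dll1, Gal and Ebf3 lie right of 0 without passing, and Hes6, Id3 and Sct lie left of it and pass in the paired fit.

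Endocrine and sensory genes were set side by side because they stand for the lineages that Neurog3 and Neurog1 are best known for. In the pancreatic and enteric endocrine list, 21 of 40 genes were expressed enough to test without a block, and 10 had a positive and 10 a negative log2 fold change. Sct was the 1 gene called of 12 tested in the paired fit, lower with Neurog3. In the peripheral sensory neuron list, 23 of 28 genes in the table were tested, 11 were positive and 12 negative, and none of these, nor of the 17 tested in the paired fit, was called. The medians were 0.00 for the endocrine and -0.05 for the sensory list. In the list of neuropeptides and secreted peptides Gal, the neuropeptide galanin, had 747, 782 and 322 CPM with Neurog3, against 356, 593 and 279 CPM with Neurog1. It was higher with Neurog3 in each letter, with a log2 interval of -0.19 to 1.38 without a block and 0.23 to 0.88 in the paired fit (adjusted p = 1 and 0.17, edgeR). The controls averaged 0.06 CPM.

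In neuronal structure and fibroblast identity, single genes passed the paired fit. Tubb3, the neuronal beta-tubulin, had 49.2, 185 and 60.0 CPM with Neurog3 and 58.7, 189 and 70.6 CPM with Neurog1. The letters differed far more than the factors, and the log2 interval was -1.20 to 0.97 without a block and -0.43 to 0.08 in the paired fit. In the synapse list none of 36 tested members was called without a block, and 1 of 24, Sv2b, in the paired fit. Fibroblast markers were abundant in both groups, as the MEF label implies: Col1a1 had 336, 743 and 505 CPM with Neurog3 and 407, 932 and 394 CPM with Neurog1, and Vim, which encodes vimentin, had 5380, 1793 and 2745 CPM with Neurog3 and 5172, 2839 and 2860 CPM with Neurog1. Col3a1, a fibrillar collagen, had a paired log2 interval of -0.04 to 0.50. In the paired fit 34 of the 35 tested fibroblast and matrix genes had a 95% interval within 2-fold, and Eln was the 1 called. Acta2, smooth muscle actin, had 1186, 549 and 705 CPM with Neurog3 and 1385, 543 and 856 CPM with Neurog1, with a paired interval of -0.43 to 0.10.

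Cell cycle genes were measured with narrow intervals. All 30 cell cycle genes had a paired 95% interval within 2-fold, 27 of them also without a block, and their median log2 fold change was -0.03. Mki67, the proliferation antigen Ki-67, had 288, 338 and 317 CPM with Neurog3 and 309, 296 and 223 CPM with Neurog1. Of the cholesterol synthesis genes, 21 of 23 had a positive log2 fold change, with a median of 0.13, and none of the 23 was called in either fit. Interferon response genes had 20 of 29 positive and a median of 0.24, and none of these, nor of the 22 tested in the paired fit, was called. Over all 28 lists, 456 distinct genes were tested in the paired fit, and 4 were called higher (Sv2b, Prom1, Ttyh1 and Pfkfb3) and 7 lower (Hes6, Id3, Sct, Eln, Egln3, Lyz2 and Cebpa). That share of 2.41% is not read against the 0.516% over all genes, because the lists were drawn up with results for some of their members known.

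**Figure D4:**
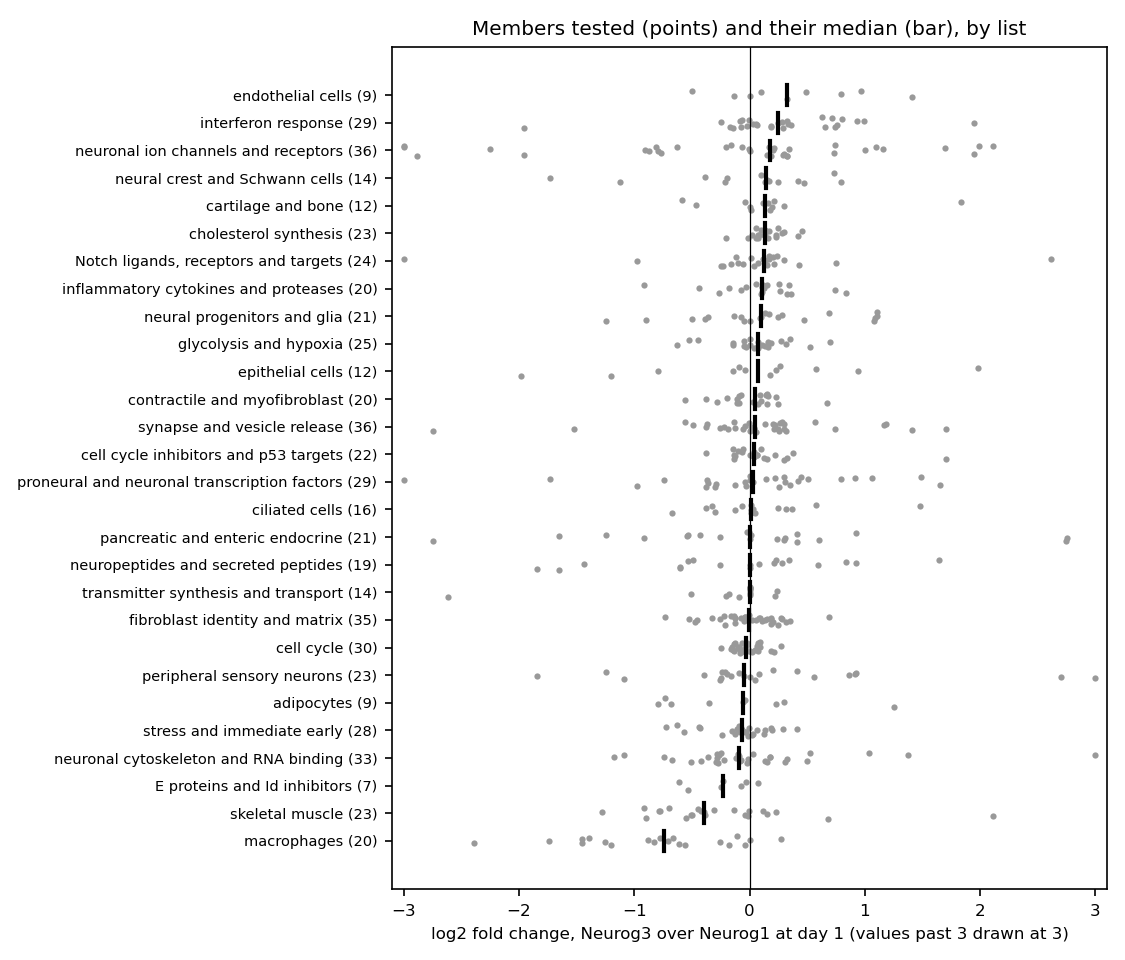
Log2 fold change of Neurog3 over Neurog1 at day 1 (15-library fit without a block) for the tested members of 28 gene lists, 1 point per gene, with the median as a bar and the number tested in brackets. Most medians lie near 0, from -0.74 for macrophages to 0.32 for endothelial cells, and points of cell cycle genes lie closest together.

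Of the macrophage markers, 1 of 12 tested in the paired fit was called, Lyz2, lower with Neurog3, and none of 20 in the 15-library fit without a block. Lyz2, the lysozyme of macrophages, had 16.3, 14.7 and 19.6 CPM with Neurog3, against 32.6, 49.7 and 38.2 CPM with Neurog1, and a mean of 142 CPM in the controls. It passed the paired fit (log2 fold change -1.24 ± 0.16, adjusted p = 0.00165, edgeR), and its close copy Lyz1 may share reads with it. Of the 20 tested without a block, out of 24 listed, 18 had a negative log2 fold change, 11 were lower with Neurog3 in all 3 letters (13.7% of all genes tested were), and none of the 24 had 0 counts throughout the 6 libraries. The summed level of the list was 65.6 to 107 CPM with Neurog3, 116 to 127 CPM with Neurog1 and 350 to 458 CPM in the controls. Lcp1, the actin bundler of leukocytes, had 1.25, 1.04 and 0.51 CPM with Neurog3, against 3.95, 4.83 and 1.67 CPM with Neurog1 (log2 fold change -1.88, adjusted p = 0.0209, paired fit); it is not in the list. Cebpa, a factor of adipocytes and myeloid cells from the adipocyte list, was lower with Neurog3 (log2 fold change -0.86), with 15.6, 5.97 and 11.6 CPM with Neurog3, against 23.7, 15.9 and 17.7 CPM with Neurog1. Lcp1 and Cebpa were picked after their values were seen. Of the 9 adipocyte genes tested without a block, 3 had a positive and 6 a negative log2 fold change, with a median of -0.05. Cebpa was the 1 called of the 8 tested in the paired fit. Unlike Lyz2, Cebpa had a mean above that of the controls with both factors (7.39 CPM in the controls). The part of macrophages in the other differences was not tested. The skeletal muscle list had 18 of 23 tested genes negative with a median of -0.40, and none of these, nor of the 15 tested in the paired fit, was called.

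Most of the genes that separated the factors had also moved against the controls, which both comparisons with control share. The genes were picked for a difference between the factors in the same day-1 libraries. That choice favours a call against control with either factor, so the counts here are description only. Of the 73 genes, 47 were called with Neurog3 against control, 43 with Neurog1 against control and 56 with either (edgeR, 15 libraries, where 12.8% and 12.2% of all genes were called). Hapln1 shows one form of this: the log2 fold change against control was 1.66 with Neurog3 (adjusted p = 0.056) and 3.32 with Neurog1 (adjusted p = 0.00095). Ace, at 0.42 CPM in the controls, rose with both, by 6.43 with Neurog3 and 7.41 with Neurog1. S1pr3, a sphingosine 1-phosphate receptor gene, fell with both: it had 50.0, 43.3 and 47.9 CPM with Neurog3, 39.5, 19.6 and 30.5 CPM with Neurog1 and a mean of 148 CPM in the controls. Ch25h had 3.40, 4.76 and 3.48 CPM with Neurog3 and 9.54, 14.5 and 9.46 CPM with Neurog1, beside 12.5 CPM in the controls, and fell against control with Neurog3 (log2 fold change -1.68, adjusted p = 0.037) while its value with Neurog1 was -0.16 (adjusted p = 0.91).

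The day-13 libraries were not used by the paired fit at day 1. In the 15-library fit without a block, 45 of the 73 genes had the same sign at day 13: 12 of the 24 higher and 33 of the 49 lower. No share over all genes stands beside these counts, so they do not show that the differences lasted. A separate paired fit on the 6 day-13 libraries leaned to lower values, with 159 genes called higher and 248 lower. In that paired fit, in which 2.57% of genes were called, 12 of the 73 were called, 11 of them in the day-1 direction, and 5 could not be tested. The block changes these calls: the 15-library fit without a block called 4 genes at day 13 (0.0237%), and of the 12 it called Fam19a1 (adjusted p = 0.026, edgeR) and not Ttyh1 (0.215) or Insc (0.554). Ttyh1 was higher again, with 225, 83.4 and 212 CPM with Neurog3 at day 13 and 54.3, 26.1 and 61.9 CPM with Neurog1 at day 13 (log2 fold change 1.85 ± 0.12, adjusted p = 0.000852, paired edgeR fit). Prom1, Epn3, Mmd2 and Igsf10 were also higher at both days. Insc was lower again, with 6.89, 6.88 and 2.75 CPM with Neurog3 at day 13 and 11.8, 22.5 and 7.69 CPM with Neurog1 at day 13, as were Cpne6, Eln, Fam19a1, Col14a1 and Agtr2. Steap3, a metalloreductase of iron uptake, was the 1 gene called in opposite directions, with paired log2 fold changes of 0.92 at day 1 and -1.47 at day 13. Sct was not called at day 13 (adjusted p = 0.306, paired edgeR fit), at 212, 101 and 223 CPM with Neurog3 at day 13 and 212, 58.0 and 193 CPM with Neurog1 at day 13. The test of the change itself, the day-13 difference minus the day-1 difference, called 0 genes with edgeR with or without the block within day. At an unadjusted p under 0.05 it gave 471 of 16872 genes without the block and 1067 with it. The first is below and the second above a share of 0.05, which such a cut gives where no gene differs.

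**Figure D5:**
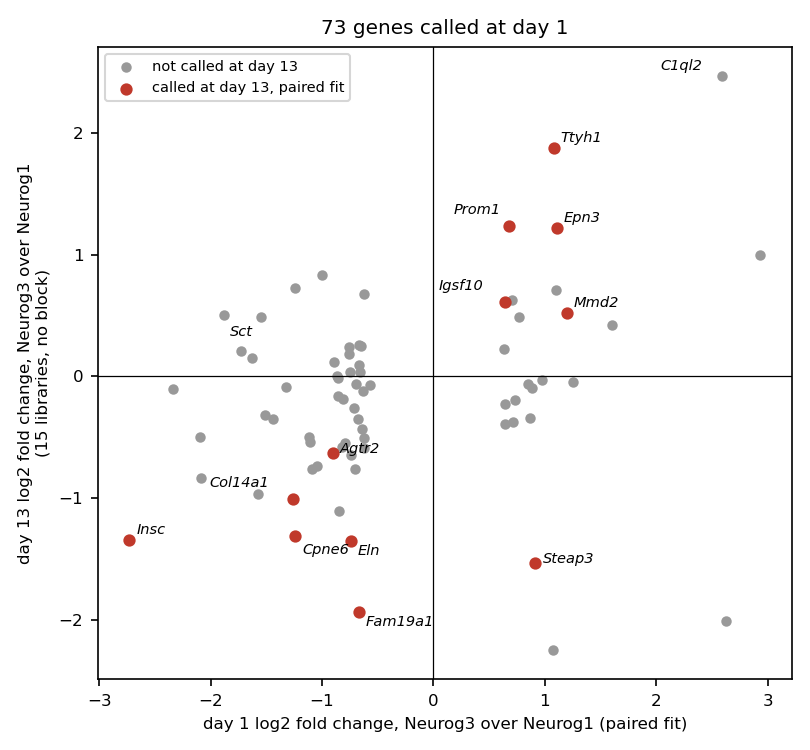
Log2 fold change of Neurog3 over Neurog1 at day 1 (paired fit) against the same at day 13 (15-library fit without a block) for the 73 genes called at day 1, 1 point per gene. Red points were also called in the paired fit at day 13: 11 of them, such as Ttyh1 and Insc, lie in the quadrants of equal sign, and Steap3 lies in the lower right quadrant.

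The design sets how much difference could be seen. The median standard error of the log2 fold change was 0.30 in the 15-library fit without a block and 0.15 in the paired fit. In the paired fit 82.7% of the 14534 genes had a 95% interval that lay within a 2-fold difference and 63.8% within 1.5-fold, against 61.1% and 27.4% of 16872 genes in the 15-library fit without a block. For the remaining genes a larger difference between Neurog3 and Neurog1 was within the error, so a gene that did not pass the test is not shown to respond alike to both factors.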

How the data were processed

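PolyA RNA libraries made with TRIzol and a NEBNext Ultra kit, per the labels' protocols, were deposited as raw gene counts. CASAVA, HISAT2, featureCounts and the build mm10 are listed, without versions, annotation or strand setting, in the submitters' processing notes for these deposited counts. GENCODE M21 gave symbols and coordinates for 42548 of 43432 gene IDs.

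The 6 day-1 libraries were grouped by their labels. Differences were tested on the deposited counts with the quasi-likelihood test of edgeR 4.0.16 (with limma 3.58.1 in R 4.3.3), using 1 mean per group over all 15 libraries, TMM factors, edgeR's expression filter and Benjamini-Hochberg adjustment at 0.05. CPM uses TMM-scaled library sizes, ± is the SE of a log2 fold change, and intervals are 95% intervals. The same fit was run with the letter as a block within day, and on the 6 libraries alone with the letter as a block. The letters a, b and c were taken as pairs because same-letter libraries deviated together from their group means (correlations of 0.454, 0.539 and 0.325); the labels do not say what the letters mark. DESeq2 1.42.0, other scalings and filters, and leaving out libraries were alternatives. The procedure was tested on simulated data with letter shifts of the form that the block removes. That does not show that the calls in these data hold.

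The comparison, anchor genes and gene lists were chosen with earlier results of these data known. Named genes are the anchors Neurog1, Neurog2, Neurog3, Dll1, Hes6, Neurod1, Neurod4, Insm1, Gal, Sct, Ttyh1, Tubb3, Acta2 and Col1a1, genes called in the 15-library fits, and called or abundant members of the lists; not every gene so given is printed. Genes called in the 6-library fit alone, and list members outside that rule, were chosen after their values were seen. Genes with predicted names only were counted and not named.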

Additional observations from a re-analysis of the deposited data

How the results depend on the processing

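Each setting gave the Neurog3 and Neurog1 genes as called. Beside 1 gene higher and 1 lower with Neurog3 in the 15-library fit, the replicate block within day gave 1 and 3, the replicate block on the 6 day-1 libraries gave 25 and 50, and those 6 libraries without a block gave 1 and 2. DESeq2 gave 2 and 2, as did no expression filter, in both cases adding Insc and 1 predicted gene. RLE factors, library totals, a filter of 1 CPM in 3 libraries and leaving out any 1 of the 6 libraries gave 1 and 1. In the paired fit on 6 libraries, leaving out 1 letter gave 7 to 227 genes higher and 11 to 105 lower, and the 1 CPM filter gave 16 higher; these alternatives were chosen after seeing the data. DESeq2 with the block called 82 genes, 64 of them among the 75, and RLE factors 78, with all 75 among them. For 10 named genes whose difference did not pass without a block, leaving out 1 library turned the sign. Their log2 fold changes then ranged from -0.16 to 0.68 for Neurod1, -3.65 to 1.51 for Neurod4, -0.94 to 0.59 for Tubb3, -0.57 to 0.22 for Acta2, -0.44 to 0.39 for Col1a1, -0.052 to 1.25 for Igsf10, -0.35 to 0.49 for Heyl, -0.032 to 0.29 for Notch2, -0.035 to 0.38 for Col3a1 and -0.68 to 0.21 for Vim. Why the count depends on the letters was not tested. Depth was even, at 16179235 to 17645853 counts, and limits genes of few reads such as Neurod4.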
